A study of Homo sapiens with 22 samples.

Results

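The genes described here carry out DNA replication and mitosis. They are a fixed list of 54 gene symbols, found by name among the 25343 symbols that each file lists, and all 54 were present and passed the filter on low counts in each fit. By role, 29 act in replication: 11 in origin licensing, 8 in DNA synthesis and the replication fork, 4 in nucleotide supply, 3 in the G1/S step, and, counted with them, the transcription factors E2F1, E2F2 and MYBL2, although MYBL2 also acts on late genes. The other 25 act in mitosis: 7 in mitotic entry, 5 in the spindle checkpoint and anaphase promoting complex, 8 on chromosomes and centromeres, 4 on the spindle, and the transcription factor FOXM1.

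The data are 22 libraries of polyadenylated RNA from cultured human renal cancer lines, made in a study of enhancers in metastatic cancer. The unmodified lines 786-O, 786-M1A and OS-LM1 gave 2 libraries each, and 786-M1A is known as a metastatic derivative of the clear cell carcinoma line 786-O, whereas OS-LM1 is a metastatic line of another origin. In the other 16 libraries 786-M1A cells carried a CRISPRi system (CRISPR interference), where an inactive Cas9 brings a transcriptional repressor to the place in the genome that its guide RNA matches. The non-targeting control, SC, gave 6 libraries, treatments iMAE-1.1 and iMAE-1.2 had 4 each, and iMAE-126 gave 2. What each iMAE treatment targets, and whether cells were pooled or cloned, is not stated in the labels. All cells were grown in the same medium and were not treated with a drug.

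A dividing cell copies its genome once. In G1, the origin recognition complex with CDC6 and CDT1 loads the MCM helicase on origins. Cyclin E with its kinase then starts S phase, in which the polymerases, the sliding clamp PCNA and the clamp loader copy DNA from nucleotides made by ribonucleotide reductase and thymidylate synthase. Cyclin B with CDK1, PLK1 and the Aurora kinases drive mitosis, the spindle checkpoint holds it until chromosomes are attached, and CDC20 and UBE2C then bring about the destruction of cyclin B. Transcription of the early genes is known to be controlled through E2F sites, and that of the late genes through CHR and CCAAT elements bound by the MuvB, MYBL2, FOXM1 and NF-Y proteins.

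Promoter sequences of 46 of the 54 genes were matched by symbol in a RefSeq table of GRCh38.p14, a build other than the one the counts were made on. Each entry covers 250 bases before to 50 after a transcription start, and the entry listed first was used for a gene with several starts. CCNE2, MCM4, AURKA, FOXM1, UBE2C, MCM5, TPX2 and BIRC5 were not matched. Letters were searched on both strands for an E2F site (TTTGGCGC, TTTCCCGC, TTTGCCGC or TTTCGCGC), a CHR (TTTGAA or TTCGAA) and a CCAAT box (CCAAT), and matches may overlap. A CHR match was present in 15 of 20 mitosis promoters (75.0%) and 1 of 26 replication promoters (3.85%, RRM1), against 16.6% of 27305 promoters in the table. An E2F match was present in 15 of 26 replication promoters (57.7%) and 3 of 20 mitosis promoters (15.0%), against 3.33% of the table. The CCAAT letters were in 17 of 20 mitosis and 16 of 26 replication promoters, against 35.7% of the table. Such matches describe letters and do not show that a protein binds there.

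The 120 bases before the start are shown for 6 mitosis genes that were lower with iMAE-126, 5 of them under each leave-one-out setting (all but PLK1), as described further on. Matches to the 3 motifs are in capitals, sequences read 5′ to 3′ along the gene, and coordinates are of GRCh38.p14.
PLK1, chr16:23678769-23678888, + strand: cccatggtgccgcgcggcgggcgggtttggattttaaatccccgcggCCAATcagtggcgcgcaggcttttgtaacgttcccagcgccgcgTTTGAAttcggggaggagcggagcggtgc
KIF23, chr15:69414229-69414348, + strand: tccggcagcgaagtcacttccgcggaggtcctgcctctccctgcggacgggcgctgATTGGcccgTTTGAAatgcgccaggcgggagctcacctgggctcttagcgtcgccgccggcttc
MKI67, chr10:128126424-128126543, - strand: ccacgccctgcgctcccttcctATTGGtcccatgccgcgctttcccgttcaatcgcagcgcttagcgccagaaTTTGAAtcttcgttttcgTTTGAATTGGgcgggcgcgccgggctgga
KIF11, chr10:92593010-92593129, + strand: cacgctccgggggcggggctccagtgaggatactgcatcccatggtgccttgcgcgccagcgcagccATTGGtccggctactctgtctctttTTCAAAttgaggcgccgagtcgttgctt
CDCA8, chr1:37692396-37692515, + strand: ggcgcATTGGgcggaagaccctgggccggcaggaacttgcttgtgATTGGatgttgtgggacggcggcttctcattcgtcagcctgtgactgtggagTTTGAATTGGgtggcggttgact
CENPA, chr2:26785936-26786055, + strand: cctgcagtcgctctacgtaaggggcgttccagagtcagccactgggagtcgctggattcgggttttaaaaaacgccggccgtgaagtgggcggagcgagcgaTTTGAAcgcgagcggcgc
In each of these 6 a CHR match lies within the stretch, and in all but CENPA a CCAAT match does too, read as ATTGG where it lies on the other strand. These 6 were picked for display and give no rate. Of other genes lower under each leave-one-out setting, CCNA2 had no CHR match in its entry. The CHR matches of BUB1 and MAD2L1 lay after the start, outside the stretch.

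The same stretch is shown for 4 replication genes that were higher in 786-M1A than in 786-O.
E2F1, chr20:33686386-33686505, - strand: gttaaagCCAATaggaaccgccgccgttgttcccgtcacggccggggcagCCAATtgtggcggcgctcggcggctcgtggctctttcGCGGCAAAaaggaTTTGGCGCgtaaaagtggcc
CDT1, chr16:88803669-88803788, + strand: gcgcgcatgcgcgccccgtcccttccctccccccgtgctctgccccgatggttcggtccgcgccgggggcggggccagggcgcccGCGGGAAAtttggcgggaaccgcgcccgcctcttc
GINS2, chr16:85688955-85689074, - strand: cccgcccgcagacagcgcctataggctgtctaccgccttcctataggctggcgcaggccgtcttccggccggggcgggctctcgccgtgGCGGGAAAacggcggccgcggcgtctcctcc
CDC25A, chr3:48188418-48188537, - strand: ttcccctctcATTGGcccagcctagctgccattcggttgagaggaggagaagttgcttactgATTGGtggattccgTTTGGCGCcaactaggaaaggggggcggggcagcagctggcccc
These 4 were chosen for display with their matches known. Of the 9 replication genes that were higher in 786-M1A, 7 had a promoter entry, and 5 of those 7 held an E2F match (the exceptions were ORC6 and RFC4) and 0 a CHR match.

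The total of expected counts per library lay between 9.06 and 52.7 in units of 1000000. The labels do not say whether replicates were separate cultures, and the spread behind each p-value may then be technical only. Among markers, the renal epithelial list (8 genes) summed to 1042 to 1459 TPM (transcripts per 1000000), with PAX8 at 87.1 TPM or more in each library and CA9 between 0 and 33.1. The leukocyte list (5 genes) summed to 3.72 to 15.56 TPM, most of it LYZ, with CD3E at 0. The endothelial, red cell and fibroblast lists were at most at 1.45, 0.22 and 6.91 TPM. The CRISPRi libraries fell into a pair of library sets that the labels do not name, found without the 54 genes by the largest gap on the first principal component (66.9, next gap 5.84; 38.3% of the variance). Set A holds iMAE-126 with SC replicates 1 and 2, and set B holds SC replicates 3 to 6 and all libraries of iMAE-1.1 and of iMAE-1.2. Comparisons with SC below are therefore within a set: iMAE-126 against 2 SC libraries, and iMAE-1.1 as well as iMAE-1.2 against 4.

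Levels were highest in the unmodified 786-M1A line. The TPM of the 54 genes summed to 8006 and 7964 in the 786-M1A libraries, about 0.80% of all transcripts. The highest single levels, on the TPM scale that allows genes to be compared, were those of UBE2C, the ubiquitin-conjugating enzyme of the anaphase promoting complex (496 TPM), its activator CDC20 (492 TPM), the thymidylate synthase TYMS (411 TPM) and the helicase subunit MCM7 (369 TPM), each as a mean of 2 libraries. The lowest were the transcription factor E2F2 (9.25 TPM) and cyclin E1, CCNE1 (12.8 TPM). The sum was 7601 and 7394 TPM in 786-O, 5710 and 5276 TPM in OS-LM1, 6652 and 6757 TPM in SC of set A, and 5024 to 5349 TPM in SC of set B. It was 5035 and 5330 TPM in iMAE-126, 5174 to 5870 TPM in iMAE-1.1 and 4957 to 5650 TPM in iMAE-1.2. The sum in iMAE-126 thus lay below both control libraries of its own set and within the range of the controls of the other set. In cultured cells in bulk, fewer cycling cells and less RNA of these genes per cell cannot be told apart.

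**Figure D1:**
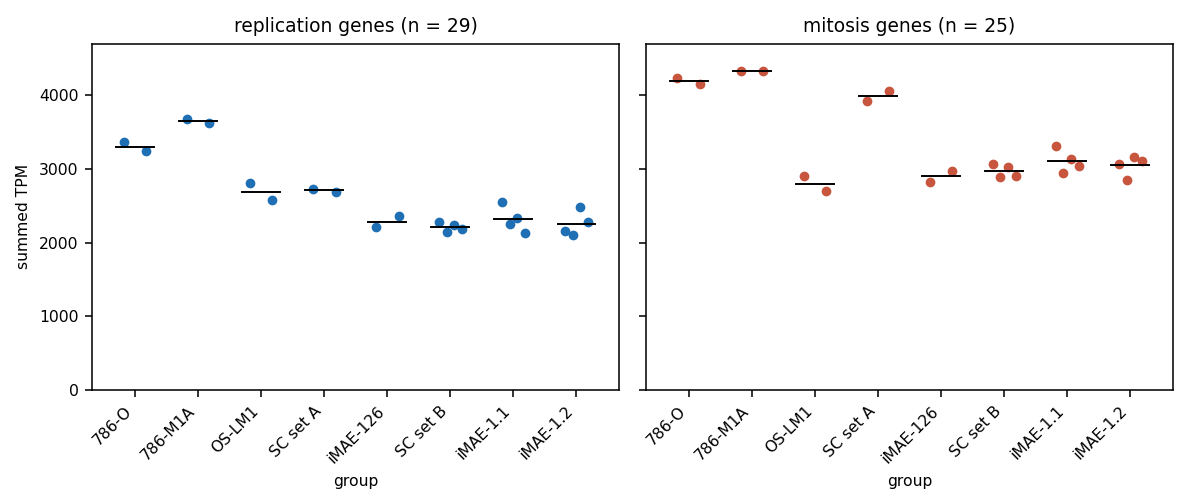
Summed TPM of the 29 replication genes (left) and the 25 mitosis genes (right), 1 point per library, with the group mean as a line, for each group and library set. For mitosis genes, SC of set A (3920 and 4065 TPM) stands close to the unmodified 786 lines, whereas iMAE-126 (2824 and 2972 TPM) is at the level of OS-LM1 and of SC of set B (2885 to 3074 TPM).

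**Figure D2:**
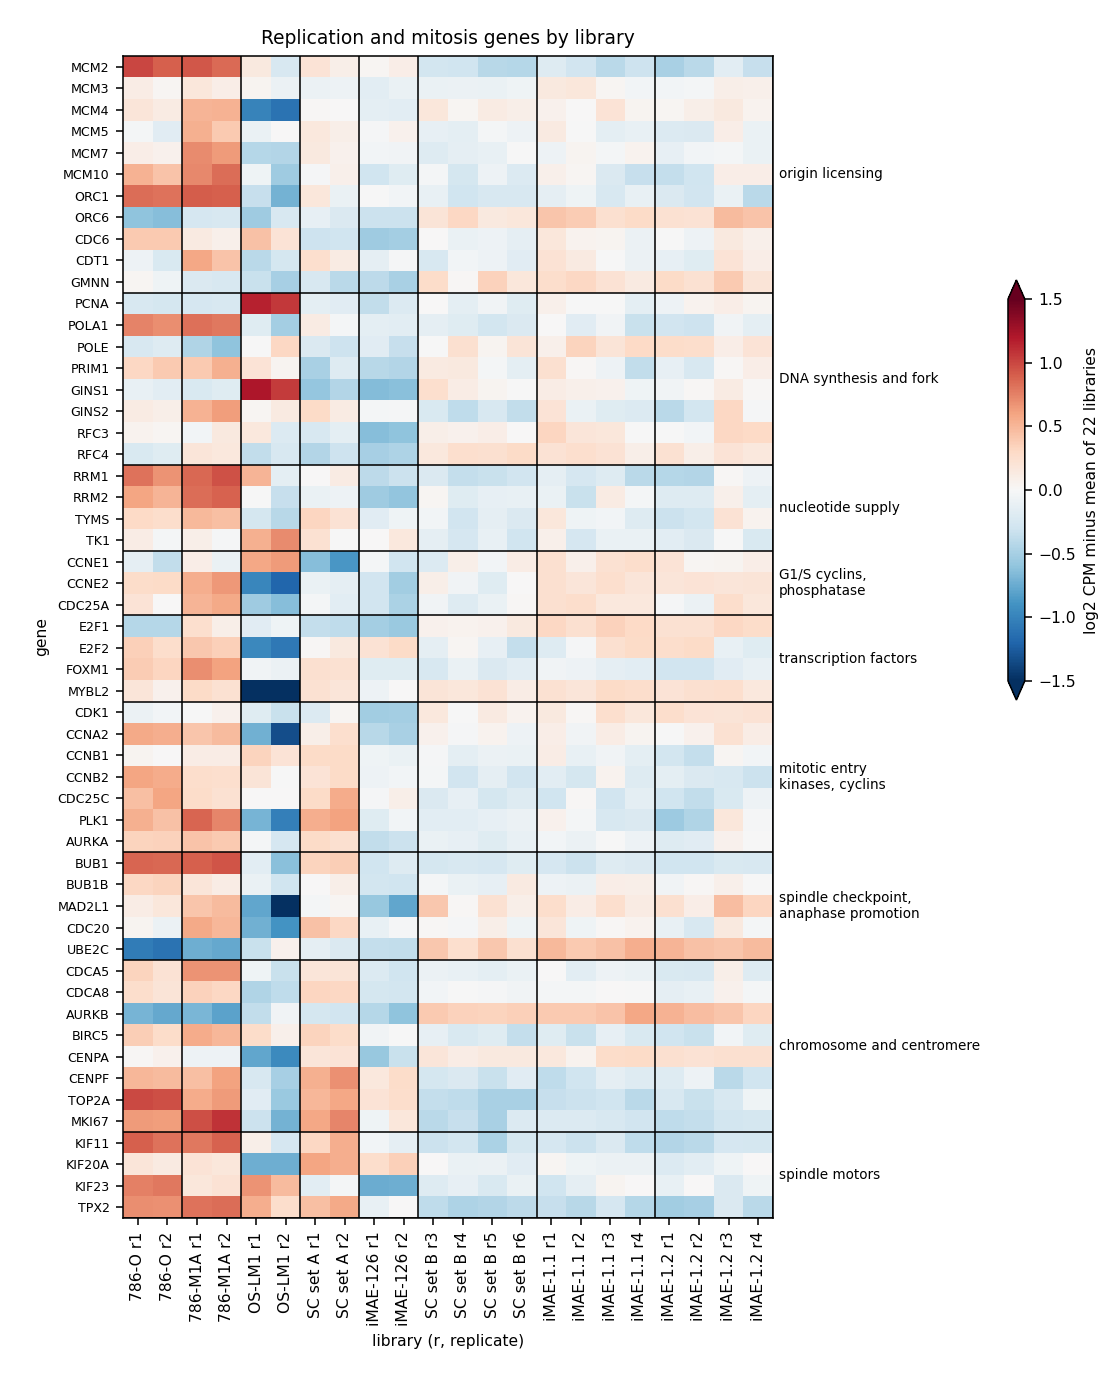
Log2 CPM (counts per 1000000 of the scaled library total) of each of the 54 genes less its mean over the 22 libraries, with genes in rows by role and libraries in columns by group. Colours end at 1.5 in either direction. Replication genes such as MCM2 and RRM2 are high in both 786 lines, MYBL2 is low in OS-LM1, and the SC libraries of set A are higher than those of set B for long mitosis genes such as MKI67, TOP2A and CENPF.

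The first comparison set the metastatic derivative against its parent. In 786-M1A, 11 of the 54 genes were higher than in 786-O and 1 was lower, by edgeR's quasi-likelihood test at a Benjamini-Hochberg adjusted p under 0.05, where 31.0% of all 16354 genes tested were called (14.7% higher and 16.3% lower). Replication genes made up 9 of the 11. The median log2 fold change was 0.16 over the 29 replication genes and 0.07 over the 25 mitosis genes, against −0.02 over all genes.

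CDT1, the loader of the MCM helicase, had 70.1 and 63.3 CPM in the 786-M1A libraries, compared with 44.4 and 40.1 CPM in those of 786-O. It rose by 0.66 ± 0.11 on the log2 scale (SE, n = 2 against 2; edgeR adjusted p = 0.00261). E2F1, the factor that drives S phase genes, was at 114 and 102 CPM against 71.4 and 71.8 CPM (0.60 ± 0.10, edgeR adjusted p = 0.00338). For both genes the lines did not overlap, with either 786-M1A library above either 786-O library. The helicase subunit MCM7 was at 526 and 499 CPM against 344 and 336 CPM (0.59). Its partner MCM5 was at 192 and 174 CPM against 130.0 and 118 CPM (0.56), and GINS2, a part of the active helicase, at 62.8 and 67.4 CPM against 47.4 and 46.2 CPM (0.48). These 3 helicase genes also separated the lines without overlap, which for MCM5 and GINS2 was a condition for being named. The other called replication genes, named after their values were seen, were CDC25A (0.43), ORC6 (0.38), RFC4 (0.37) and MCM4 (0.36). MCM2, at 189 and 179 CPM against 199 and 184 CPM, was not called (−0.06).

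Among mitosis genes CDC20 was the one with the largest rise, at 386 and 368 CPM against 267 and 246 CPM (0.56 ± 0.12, edgeR adjusted p = 0.00794). CDCA5, which keeps sister chromatids together, was called too (0.39). KIF23, a motor of the central spindle in cytokinesis, fell, from 205 and 210 CPM in 786-O to 136 and 142 CPM in 786-M1A (−0.58, edgeR adjusted p = 0.00602). The kinases CDK1 (0.09), PLK1 (0.32) and AURKA (0.07) and the proliferation antigen MKI67 (0.39) did not pass the test. MKI67 nevertheless lay higher in 786-M1A (958 and 1039 CPM) than in 786-O (767 and 758 CPM).

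These calls rest on few libraries. Leaving out 1 library left 2 (without 786-M1A replicate 1), 4 (without 786-M1A replicate 2), 3 (without 786-O replicate 1) and 0 (without 786-O replicate 2) of the 12 calls. When the 4 compared libraries were fitted without OS-LM1, 24 genes were higher and 8 lower.

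Upstream of these genes, G1 regulators moved in both directions: of 26 tested, 4 were higher and 6 lower in 786-M1A. Over the 26 the log2 fold changes lay between −2.92 and 0.73, with 14 above 0 and 12 below. The genes named here are only a part of the list, leave out the gene at −2.92, and do not give the direction of the list. Of the D-type cyclins, which start the inactivation of the retinoblastoma protein, CCND1 and CCND3 rose. CCND1 was at a mean of 796 against 507 CPM (0.65 on the log2 scale) and CCND3 at 66.8 against 40.2 CPM (0.73). The cyclin-dependent kinase inhibitor CDKN1B was at 30.8 against 47.8 CPM (−0.63), and CCNG2, an atypical cyclin linked to cell cycle arrest, at 12.2 against 37.3 CPM (−1.61). CDKN1A, the inhibitor induced by p53, did not pass the test, at 281 against 255 CPM (0.14). Of 38 other replication genes 9 were higher and 2 lower, and of 48 other mitosis genes 6 were higher and 3 lower.

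OS-LM1 was compared with 786-M1A as a second metastatic line. There 39 of the 54 genes were lower and 8 higher, where 68.7% of all genes were called (34.3% lower and 34.4% higher). The median log2 fold change over the 54 genes was −0.78, against 0.04 over all genes. Against 786-O, with which 786-M1A shares its origin, 34 were lower and 6 higher (63.6% of all genes called, 33.3% lower and 30.4% higher), with a median of −0.57. The comparisons share the OS-LM1 libraries.

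The MuvB partner MYBL2 stood lowest relative to 786-M1A, at 76.3 and 67.8 CPM in OS-LM1 against 307 and 295 CPM (−2.15 ± 0.12, edgeR adjusted p = 2.54e-06). Cyclin E2, CCNE2, was at 18.2 and 15.7 CPM against 52.5 and 56.3 CPM (−1.76). Its relative CCNE1 went the other way, at 17.0 and 17.7 CPM against 12.2 and 10.6 CPM (0.52 ± 0.14, edgeR adjusted p = 0.00958). The mitotic kinase PLK1 was at 80.8 and 64.5 CPM against 239 and 218 CPM (−1.73). The checkpoint protein MAD2L1 was at 44.3 and 24.2 CPM against 102 and 106 CPM (−1.67), a wide gap between the OS-LM1 libraries. For each of these genes the lines did not overlap, which for MYBL2 and MAD2L1 was a condition for being named. MCM4 (−1.65) and MKI67 (−1.60) were next in size.

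A few replication fork genes were higher in OS-LM1. PCNA, the sliding clamp, was at 528 and 495 CPM against 198 and 201 CPM (1.27 ± 0.10, edgeR adjusted p = 1.78e-05). GINS1, of the same helicase complex as GINS2, was at 125 and 113 CPM against 46.3 and 48.0 CPM (1.25), whereas GINS2 itself was lower (−0.58). The polymerase subunit POLE (0.59), UBE2C (0.55) and the thymidine kinase TK1 (0.50) were also higher. PCNA and GINS1 in OS-LM1 were above each of the other 20 libraries, and MYBL2 and MCM4 were below them.

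By role, origin licensing had 7 of 11 genes lower and 0 higher, and mitosis as a whole 20 of 25 lower and 3 higher. Under each leave-one-out setting 36 of the 47 calls against 786-M1A and 33 of the 40 against 786-O held. The calls of CCNE1, UBE2C and TK1 were lost without 786-M1A replicate 2 (edgeR adjusted p = 0.0982, 0.0618 and 0.0663). OS-LM1 also differed in its reads: the transcript length, averaged over counts, was 3617 and 3391 bases, against 3929 and 3982 bases in 786-M1A. Across the 54 genes the fold change and the log2 transcript length had a Pearson correlation of −0.33, a description over genes of the same libraries. The part of length in these differences was not tested.

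**Figure D3:**
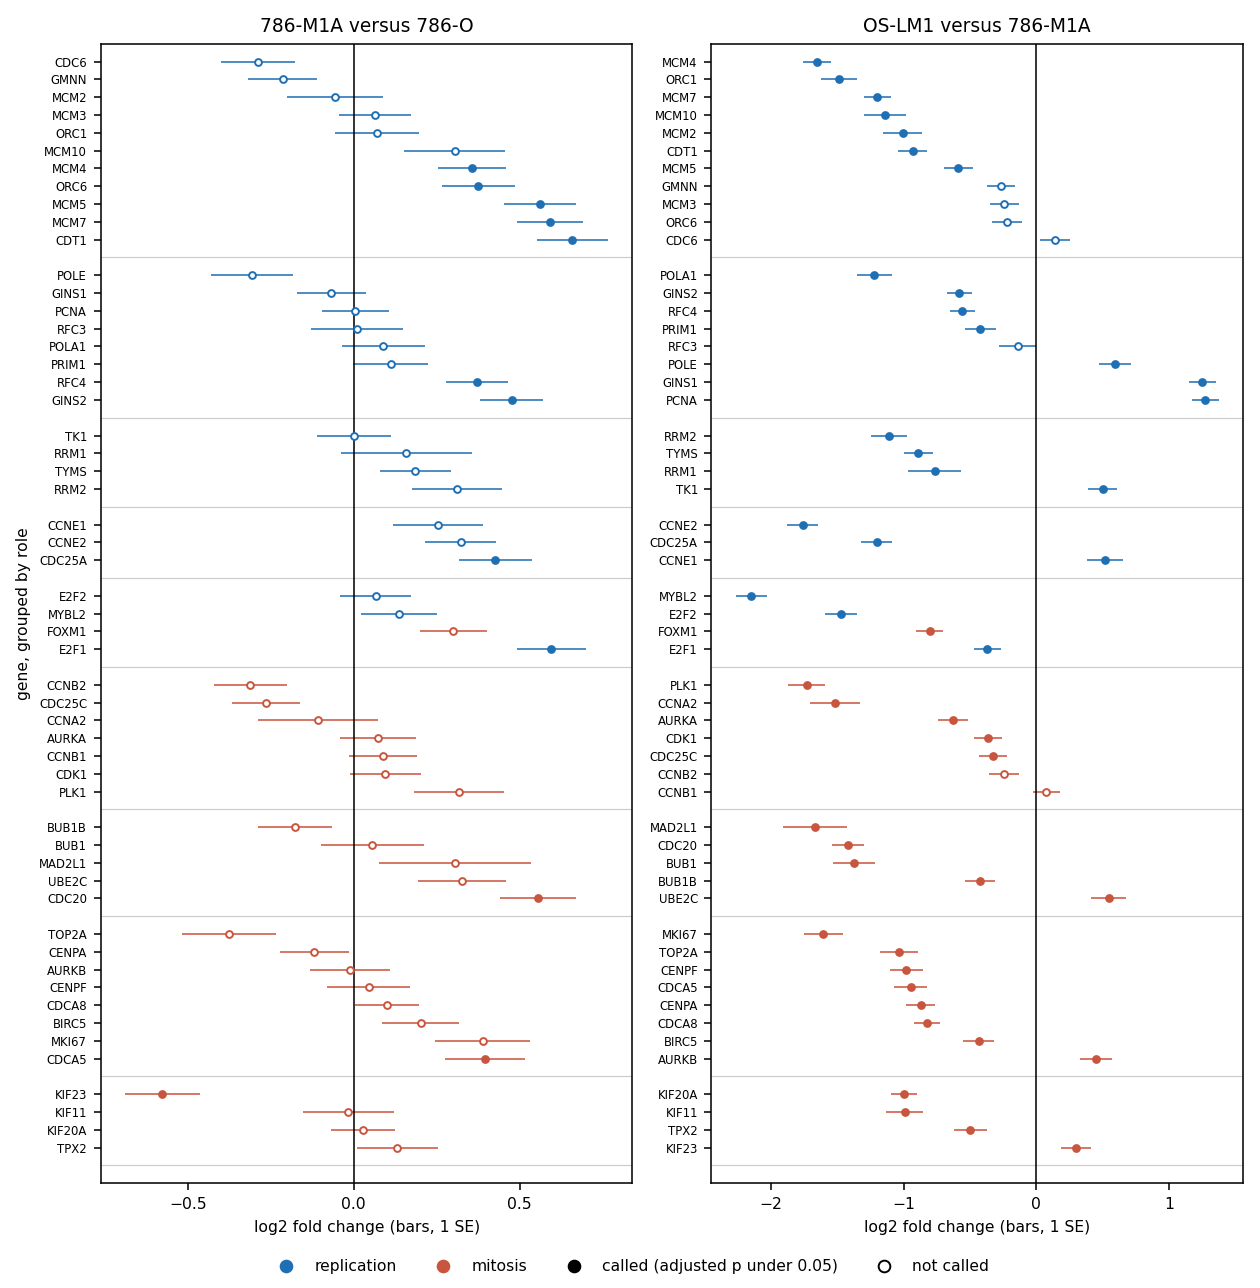
Log2 fold change with its SE for each of the 54 genes, ordered within its role, in 786-M1A versus 786-O (left) and OS-LM1 versus 786-M1A (right). Filled points passed the test. On the left 9 filled points above 0 are replication genes, and on the right 39 of the 54 genes are filled below 0, with PCNA and GINS1 at the far right.

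The control SC was set against the line it was made from. In SC of set A, 34 genes were lower than in 786-M1A and 6 higher, where 55.7% of all genes were called (28.5% lower and 27.2% higher), and the median log2 fold change was −0.28. In SC of set B, 40 were lower and 8 higher (76.8% called, 36.6% lower and 40.1% higher), with a median of −0.43. The fold change went with transcript length here, with a Pearson correlation of −0.52 over the 54 genes in set B (−0.73 over the 25 mitosis genes) and −0.26 over the 54 in set A. The transcript length averaged over counts was 3264 to 3395 bases in SC of set B, 3646 and 3716 in set A and 3929 and 3982 in 786-M1A, and its part in these falls was not tested. In set A, 23 of 29 replication genes were lower, among them RRM2, the regulated subunit of ribonucleotide reductase, at 280.5 and 285 CPM against 540.3 and 558 CPM (−0.94). RRM1 (−0.83) and ORC1 (−0.84) fell with it. Of 25 mitosis genes 11 were lower and 5 higher in set A, with UBE2C at 288 and 272 CPM against 189 and 185 CPM (0.60). The vector, the library set and the preparation of the libraries cannot be told apart in these comparisons.

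The SC libraries themselves differed by set, which gives the size of a difference that the labels do not explain. In set B against set A, 26 of the 54 genes were lower and 12 higher, where 45.2% of all genes were called (23.1% lower and 22.1% higher). Mitosis genes had 17 of 25 lower and 2 higher, and replication genes 9 lower and 10 higher of 29. MKI67 had 734 and 815 CPM in set A, compared with 350 to 425 CPM in the 4 libraries of set B (−1.01 ± 0.08, edgeR adjusted p = 1.16e-08). TOP2A, the topoisomerase that untangles chromosomes, was at 664 and 702 CPM against 334 to 367 CPM (−0.96). The centromere protein CENPF (−0.85) and the spindle proteins TPX2 (−0.92) and KIF11 (−0.75) were lower too. In the other direction, CCNE1 was at 7.30 and 6.22 CPM in set A and 9.88 to 12.3 CPM in set B (0.75), and the chromosomal passenger kinase AURKB at 74.9 and 73.7 CPM against 114 to 118 CPM (0.64). None of the genes given here by library overlapped between sets, which for AURKB was a condition for being named.

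This difference went with transcript length. Over the 25 mitosis genes the log2 fold change of set B against set A had a Pearson correlation of −0.75 with log2 transcript length (Spearman −0.70), over the 29 replication genes −0.16, and over all 15254 genes −0.26. On the log2(TPM + 1) scale the median of all genes itself shifted by −0.18 between the sets, and 35 of the 54 genes were lower and 7 higher. Of the G1 regulators, CDKN1A was at a mean of 87.2 CPM in set B against 243 CPM in set A (−1.47), CCND1 at 289 against 519 CPM (−0.84) and MYC at 129 against 65.7 CPM (0.97).

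**Figure D4:**
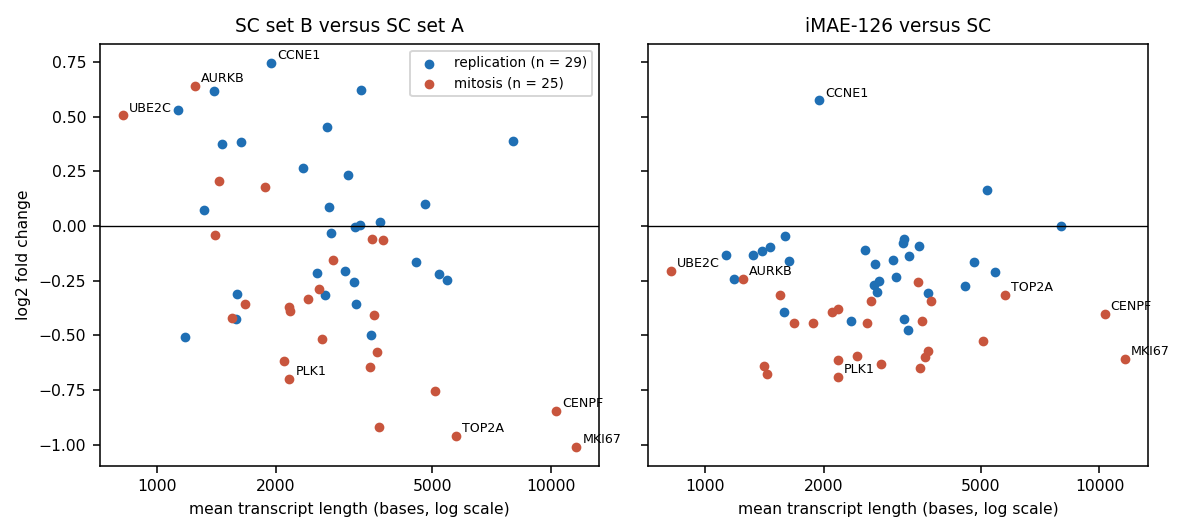
Log2 fold change of each of the 54 genes against its mean transcript length (log scale), for SC of set B versus set A (left) and iMAE-126 versus SC of set A (right), with replication and mitosis genes in different colours. On the left long mitosis genes such as MKI67 and CENPF are lowest and the short UBE2C and AURKB are above 0. On the right mitosis genes of all lengths lie below 0 (Pearson −0.16 over 25 genes, and −0.13 over all 15254 genes tested).

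With iMAE-126, mitosis genes were lower than in the SC libraries of the same set. Of 25 mitosis genes 23 were lower and 0 higher. Of 29 replication genes 5 were lower and 1 was higher. Over all 54, 28 were lower and 1 higher, where 16.7% of all 15254 genes tested were called (10.4% lower and 6.31% higher). The median log2 fold change was −0.44 over mitosis genes and −0.16 over replication genes, against 0.00 over all genes. The difference between the roles was not tested, and it rests on 2 control libraries: set against all 6 SC libraries, 12 replication and 11 mitosis genes lay below each of them in both iMAE-126 libraries (14.5% of all genes).

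Among genes of mitotic entry all 7 were lower. Cyclin A2, CCNA2, which acts in S phase and early mitosis, was at 79.5 and 75.5 CPM with iMAE-126 and at 113 and 126.4 CPM in SC of set A. It fell by 0.63 on the log2 scale (SE 0.09, n = 2 against 2; edgeR adjusted p = 0.000244). The Aurora kinase AURKA, which matures the spindle poles, was at 128 and 132 CPM against 201 and 195 CPM (−0.61 ± 0.08, edgeR adjusted p = 0.000142). Both genes in both iMAE-126 libraries were also below each of the 4 SC libraries of set B, at 101 to 111 CPM for CCNA2 and 145 to 153 CPM for AURKA. The Polo-like kinase PLK1 was at 115 and 127 CPM against 191 and 199 CPM (−0.69 ± 0.17, edgeR adjusted p = 0.0113), but SC of set B was at 117 to 123 CPM. CDK1, the kinase itself, was at 129 and 130.1 CPM against 161 and 190 CPM (−0.44), and at 186 to 207 CPM in set B. Cyclin B1, CCNB1, was at 137 and 134 CPM against 175 and 175 CPM (−0.38), and at 129 to 142 CPM in set B.

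In the spindle checkpoint and anaphase group 4 of 5 were lower. MAD2L1, which delays anaphase until chromosomes are attached, was at 51.4 and 44.5 CPM against 74.5 and 77.6 CPM (−0.68 ± 0.12, edgeR adjusted p = 0.00134), below all 6 SC libraries. CDC20 was at 242 and 258 CPM against 353 and 324 CPM (−0.44). UBE2C did not pass the test, at 245 and 243 CPM against 288 and 272 CPM (−0.20).

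On chromosomes and centromeres 7 of 8 were lower. CENPA, the histone that marks centromeres, was at 28.1 and 33.0 CPM against 47.3 and 47.7 CPM (−0.64 ± 0.09, edgeR adjusted p = 0.000342). The SC libraries of set B had 44.8 to 47.3 CPM, so the iMAE-126 libraries were the lowest of these 8. MKI67 was at 470.0 and 552 CPM against 734 and 815 CPM (−0.61), yet above SC of set B. TOP2A, at 541 and 564 CPM against 664 and 702 CPM (−0.31), also lay above SC of set B. All 4 spindle genes were lower, with KIF23 at 72.6 and 73.3 CPM against 109 and 119 CPM (−0.65 ± 0.10, edgeR adjusted p = 0.000577) and at 104 to 113 CPM in set B. FOXM1, a transcription factor of this late program, was at 131 and 131 CPM against 177 and 175 CPM (−0.43, edgeR adjusted p = 0.00146).

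Of the replication genes, 5 of 29 were lower against SC of set A. In origin licensing 0 of 11 passed the test in either direction by edgeR, 3 had an unadjusted p under 0.05, and DESeq2 called 0, and their log2 fold changes lay between −0.27 and −0.06. MCM2 was at 101 and 106 CPM against 114 and 105 CPM, which overlap. Both ribonucleotide reductase genes were lower, RRM2 at 209 and 201 CPM against 280.5 and 285 CPM (−0.48) and RRM1 at 93.1 and 97.6 CPM against 122 and 133 CPM (−0.43). The clamp loader subunit RFC3 (−0.43), CCNE2 (−0.30) and MYBL2 (−0.25) completed the 5. CCNE1 was the one gene that was higher, at 11.2 and 9.26 CPM against 7.30 and 6.22 CPM (0.57 ± 0.15, edgeR adjusted p = 0.0146), within or just below the 9.88 to 12.3 CPM of SC of set B. E2F1, PCNA and TYMS did not pass the test (−0.18, −0.13 and −0.39). By level, 12 of the 29 replication genes lay below all 6 SC libraries in both iMAE-126 libraries, against 14.5% of all genes. They were MCM4, ORC6, CDC6, PCNA, GINS1, RFC3, RFC4, RRM2, CCNE2, CDC25A, E2F1 and MYBL2.

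Among the other genes of the pathway, against the same 2 controls, 36 of 48 mitosis genes were lower and 0 higher, and 3 of 38 replication genes were lower and 0 higher. Of 25 G1 regulators tested 6 were lower and 1 higher. The lower ones included the kinase CDK6, at a mean of 233 against 377 CPM (−0.70), the retinoblastoma gene RB1, at 97.9 against 147 CPM (−0.59), the repressor E2F7 (−0.55) and the MuvB subunit LIN9, at 11.9 against 16.7 CPM (−0.51). BTG2, an antiproliferative gene, was higher, at 15.3 against 10.8 CPM (0.50). CDKN1A did not pass the test, at 250 against 243 CPM (0.03).

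Read against the promoters shown at the start, all 16 of the matched genes with a CHR match were lower with iMAE-126, against 7 of 30 without one. Of those 16, 15 are mitosis genes, and the exception, RRM1, is a replication gene that was lower. Within mitosis genes 15 of 15 with a match and 4 of 5 without one were lower, so the motif and the role cannot be told apart. Outside the 54 genes, 14.3% of 1215 tested genes with a CHR match and 11.1% of 9485 without one were lower. The other mitosis genes, of which 36 of 48 were lower, were not set apart there, so motif and role again cannot be told apart. With an E2F match, 4 of 18 of the matched genes were lower, against 19 of 28 without one. Within replication genes this was 1 of 15 against 3 of 11, and within mitosis genes 3 of 3 against 16 of 17. Outside the 54 genes it was 10.9% of 531 against 11.5% of 10169.

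**Figure D5:**
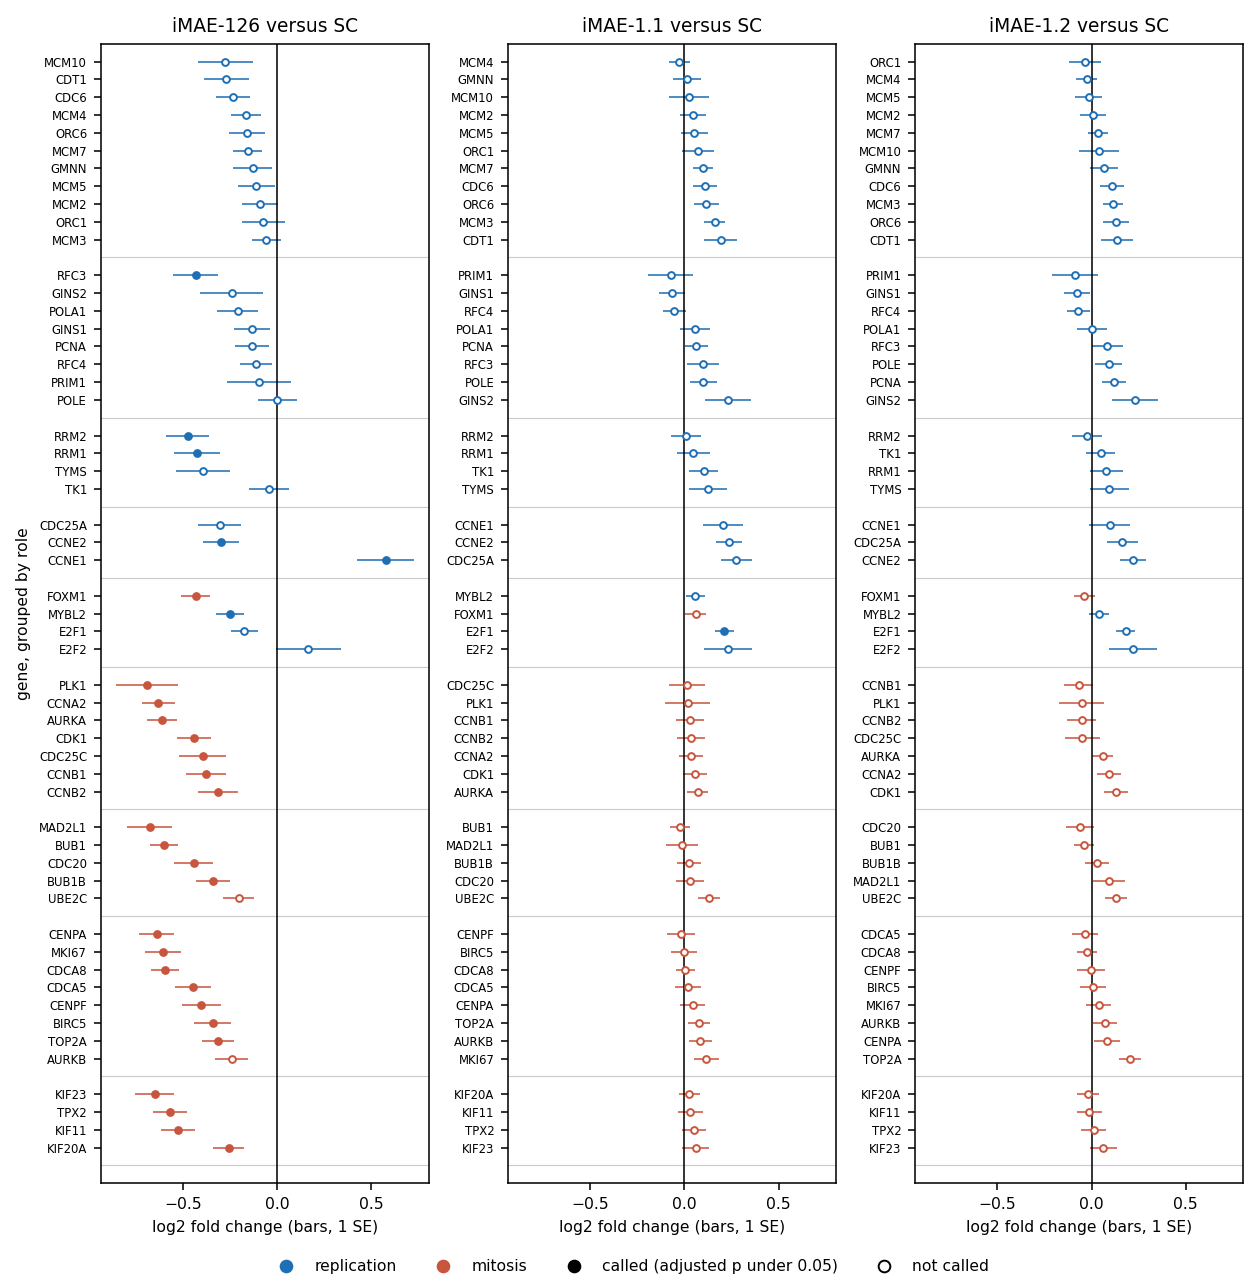
Log2 fold change with its SE for each of the 54 genes, ordered within its role, for iMAE-126, iMAE-1.1 and iMAE-1.2 versus the SC libraries of the same set. Filled points passed the test. With iMAE-126, 23 of 25 mitosis genes are filled below 0, and with the other 2 treatments 1 gene, E2F1, is filled.

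How far these calls hold depends on the libraries. The 29 calls became 20 without SC replicate 1, 13 without SC replicate 2, 14 without iMAE-126 replicate 1 and 16 without iMAE-126 replicate 2. The 11 genes called under all 4 settings were AURKA, BUB1, CCNA2, CDCA8, CENPA, FOXM1, KIF11, KIF23, MAD2L1, MKI67 and TPX2, all mitosis genes. PLK1 was lost without SC replicate 2 (edgeR adjusted p = 0.0829) or iMAE-126 replicate 1 (0.100), and CCNE1 without the same libraries (0.138 and 0.142). With all 6 SC libraries as 1 control group, 20 genes were lower and 0 higher, 11 of the 29 calls held, and those of AURKA (edgeR adjusted p = 0.0508), FOXM1 (0.34), PLK1 (0.436), CDC20 (0.262) and MKI67 (0.973) were among those lost. By level, the 23 genes below all 6 SC libraries stood beside 1, E2F2, above them (14.4% of all genes).

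Other measures differed between iMAE-126 and SC of set A as well. On the second principal component of the CRISPRi libraries (11.5% of the variance) both iMAE-126 libraries lay at −22.2 and −19.2 and the SC libraries at 15.6 and 27.7. The libraries of both other treatments were spread along the same component, from −23.4 to 26.1. The transcript length averaged over counts was 3528 and 3573 bases against 3646 and 3716 bases. The part of these in the fall of mitosis genes was not tested.

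Treatment with iMAE-1.1 or iMAE-1.2 left most of these genes near their level in SC of set B. With iMAE-1.1, 1 of the 54 genes was higher and 0 lower, where 1.79% of all genes were called (0.911% higher and 0.878% lower). That gene was E2F1, at 114 to 123 CPM in iMAE-1.1 and 99.6 to 106 CPM in the 4 SC libraries of set B. It rose by 0.21 on the log2 scale (SE 0.05, n = 4 against 4; edgeR adjusted p = 0.0353), and the groups did not overlap. With iMAE-1.2, 0 genes were called in either direction by edgeR (2.73% of all genes called, 1.39% higher and 1.34% lower), 4 had an unadjusted p under 0.05, and DESeq2 called 2. With replicates 3 and 4 alone 6 of the 54 genes were higher and 0 lower, and with replicates 1 and 2 alone 0 were higher and 1 lower. With all 4, E2F1 was at 113 to 119 CPM (0.18, edgeR adjusted p = 0.0620). The call in iMAE-1.1 was lost without 6 of the 8 compared libraries in turn, with edgeR adjusted p up to 0.0996 (without SC replicate 3).

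Over the 54 genes the log2 fold changes lay between −0.07 and 0.27 with iMAE-1.1 and between −0.09 and 0.23 with iMAE-1.2. MKI67 was at 404 to 426 CPM with iMAE-1.1, 378 to 409 CPM with iMAE-1.2 and 350 to 425 CPM in SC of set B, which overlap. PLK1 ranged from 111 to 137 CPM and from 89.6 to 147 CPM, around the 117 to 123 CPM of SC. In iMAE-1.2 set against iMAE-1.1, 0 of the 54 genes and 0 of all genes were called by edgeR, 1 of the 54 had an unadjusted p under 0.05, and DESeq2 called 2 genes in all. The cyclin CCND1, upstream of these genes, was higher with both, at means of 419 and 420 CPM against 289 CPM in SC (0.53 and 0.54), and MYC was lower with iMAE-1.2, at 108 against 129 CPM (−0.26).

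The difference between the effect of iMAE-126 and the mean effect of the other 2 treatments was tested as a contrast of its own, each effect being taken against SC of its own set. It was chosen after the data were seen. Of the 54 genes 28 were lower in it and 0 higher (11.9% of all genes called, 7.44% lower and 4.42% higher), 20 of 25 mitosis and 8 of 29 replication genes. The count lay between 13 and 31 when each of the 16 libraries was left out in turn, at 15 without SC replicate 2, 17 without SC replicate 1, 16 without iMAE-126 replicate 1, 13 without iMAE-126 replicate 2 and 18 without SC replicate 4.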

How the data were processed

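All 22 libraries were used. They are strand-specific, from polyadenylated RNA, with 15 cycles of PCR according to the labels' protocols. Bowtie2, RSEM and hg19 appear in the submitters' processing notes without a version, and no strand setting is stated there. Each expected count deposited is RSEM's estimate of the reads of a gene, per the file headers. The TPM values deposited by the authors are RSEM's too, per the file headers, and take account of effective length.

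Differences were tested on rounded counts by edgeR 4.0.16 in R 4.3.3. The settings were TMM scaling, filterByExpr with its minimum count at 10, and robust quasi-likelihood fitting. P-values were adjusted over all genes by the Benjamini-Hochberg method, and a gene was called below 0.05. One fit held the lines (6 libraries), another 786-M1A with SC (8) and the last the CRISPRi libraries (16), where each SC library belonged to its library set. The SE was obtained as log2 fold change over the root of F. CPM are per 1000000 of TMM-scaled totals over 22 libraries. The edgeR fit was tested on simulated counts for each comparison but the contrast of effects, and the other steps were not tested in this way. Those counts had the same spread setting for all genes and no difference between library sets, so they do not give the error rate in these data.

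The genes, lists and tests were chosen with earlier results of these data known. In a comparison, the text names 18 genes always, and besides them up to 6 with the largest rise and 6 with the largest fall, taken from called genes that reach a mean of 5 CPM in a group and whose libraries do not overlap. As alternatives, DESeq2 1.42.0, RLE scaling, an unfiltered table, a count threshold of 50, limma 3.58.1 applied to log2(TPM + 1), replicate number as a block, fits of only the compared libraries, fits that ignore library set, and omission of each library were run. The contrast of effects, subsets of the libraries of iMAE-1.1 and of iMAE-1.2, and a joint fit of all 22 libraries were added after seeing the data. Transcript lengths are averages of the gene lengths deposited. Python 3.11.15 with pandas 2.3.3, numpy 2.4.6 and matplotlib 3.10.9 made the tables and plots.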

Additional observations from a re-analysis of the deposited data

Results flagged for a closer look

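For 15 named genes the effect of iMAE-126 and the mean effect of iMAE-1.1 with iMAE-1.2 differed in the contrast of the effects themselves (edgeR's quasi-likelihood test, Benjamini-Hochberg adjusted p under 0.05). On the log2 scale the difference was −0.72 for MAD2L1, −0.71 for KIF23, −0.70 for CENPA, −0.70 for CCNA2, −0.68 for MKI67, −0.67 for AURKA and −0.67 for PLK1. It was −0.54 for CDK1, −0.46 for TOP2A, −0.44 for FOXM1 and −0.43 for CDC20, all mitosis genes. Among replication genes it was −0.53 for CCNE2, −0.47 for RRM2, −0.37 for E2F1 and −0.34 for CDC6. Each effect was taken against SC of its own set, so the difference also holds the gap between the SC sets. By level, MKI67 (470.0 and 552 CPM) and TOP2A (541 and 564 CPM) were higher with iMAE-126 than with either other treatment (378 to 426 and 355 to 448 CPM). For both genes SC of set A lay above SC of set B. PLK1, FOXM1 and CDC20 overlapped with the other treatments in level, and the remaining named genes were lower with iMAE-126. E2F1 and CDC6 did not pass the test with iMAE-126 itself (−0.18 and −0.23), and the values with iMAE-1.1 and with iMAE-1.2 were above 0 (E2F1 0.21 and 0.18, CDC6 0.11 and 0.11). When each of the 16 libraries was left out in turn, 8 of the 15 held throughout (MAD2L1, KIF23, CENPA, CCNA2, MKI67, AURKA, CDK1 and FOXM1), whereas PLK1 held under 5 and CDC6 under 4 of the 16 settings.

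RRM2 stood apart in 1 library: iMAE-1.2 replicate 3 had 317 CPM, against 271 CPM in the next highest of its group. Of 57 groups of values tested in this way 1 was picked out, and chance picks about 1 in 20.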

How the results depend on the processing

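Of the alternatives for the named genes, 3490 values kept their side of the threshold, 193 lost the call and 91 gained it. A further 8 changed sign in a gene called before or after the change (called genes outside the named ones are added below). Changes of sign in genes called neither before nor after are counted among the 3490. The cause of these changes was not tested. Of the 7 groups 4 have 2 libraries, the shallowest library holds 9.06 counts in units of 1000000, and a lone library left in a group is assumed to vary like the others.

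On log2(TPM + 1) with limma the median log2 fold change of the 54 genes was 0.026 for 786-M1A against 786-O, −0.88 in OS-LM1 versus 786-M1A, −0.71 in OS-LM1 versus 786-O, −0.37 in SC set A versus 786-M1A, −0.76 in SC set B versus 786-M1A and −0.44 in SC set B versus set A. That scale moved the median of all genes to −0.13 in OS-LM1 versus 786-O, −0.23 in SC set B versus 786-M1A and −0.18 in SC set B versus set A. All genes then split into 2915 higher and 4809 lower in SC set A versus 786-M1A, 3649 and 7294 in SC set B versus 786-M1A, 1658 and 5924 in SC set B versus set A, and 125 and 236 in iMAE-1.2. In SC set B versus 786-M1A the sign changed for CENPA (−0.10), PCNA (−0.19), CDK1 (−0.25), CCNE1 (−0.32) and GINS1 (−0.032), and in SC set B versus set A for CDC6 (−0.030). Without the filter, SC set A versus 786-M1A split into 3351 higher and 5306 lower.

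Without the library set, the median of the 54 genes was −0.38 for SC against 786-M1A and −0.22 for iMAE-126, genes called fell to 69 (iMAE-1.1, 0 of the 54) and 110 (iMAE-1.2), and called genes changed sign: CCNB1 (−0.050), KIF20A (−0.0069) and GINS1 (0.14) in SC versus 786-M1A, and TOP2A (0.25), KIF20A (0.14) and CENPF (0.10) in iMAE-126.

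The replicate numbers did not pair the libraries: same-numbered libraries of different groups had correlations of their deviations of −0.30 to 0.15, and others −0.31 to 0.34. With the replicate block, calls over all genes were 3648 in SC set B versus set A, 6 for iMAE-1.1 (0 of the 54), 10 for iMAE-1.2, 1388 in iMAE-126 (19 of the 54) and 355 in the contrast of effects (12 of the 54). Of the named genes flagged in that contrast, the block lost CCNE2, CDC20, CDC6, CDK1, FOXM1, PLK1 and TOP2A.

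DESeq2 called 482 genes with iMAE-1.1, 655 with iMAE-1.2 (2 of the 54) and 2 between them. In iMAE-1.1 the 1 call among the 54 became 0 without the filter, on log2(TPM + 1) and with the compared libraries alone, and in iMAE-1.2 a minimum count of 50 gave 1. For 786-M1A versus 786-O the compared libraries alone gave 8733 genes and 32 of the 54, and all 22 libraries in one fit 21 of the 54. Replicates 3 and 4 of iMAE-1.1 alone gave 109 genes (0 of the 54) and replicates 1 and 2 gave 583. Replicates 1 and 2 of iMAE-1.2 alone gave 1 of the 54 (lower), and replicates 3 and 4 gave 1087 genes and 6 of the 54 (all higher).

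Leaving out each library in turn gave these ranges: 2259 to 2551 genes and 0 to 4 of the 54 in 786-M1A versus 786-O, 135 to 271 and 0 to 1 for iMAE-1.1, 201 to 441 and 0 to 1 for iMAE-1.2, 712 to 1677 and 13 to 20 in iMAE-126, and 672 to 2143 and 13 to 31 in the contrast of effects.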

Other observations

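Libraries of the iMAE-1.1 and the iMAE-1.2 treatment fell into 2 groups that cross the treatments: iMAE-1.1 replicates 1 and 2 with iMAE-1.2 replicates 3 and 4, and the other 4 libraries. The grouping was seen in the data, and the labels do not name it. In the first 4 libraries 12 of the 54 genes were above all of the other 4 (12.9% of all genes), namely MCM3, MCM5, MCM10, ORC6, CDC6, CDT1, PRIM1, GINS2, RFC3, CDC25A, PLK1 and KIF20A, 10 of them replication genes. E2F2, AURKB and CENPF were below (12.5% of all genes).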
